A study of Homo sapiens with 16 samples.

Results

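The mismatch repair genes MSH3, MSH6, PMS1, PMS2, MLH3 and EXO1 were followed by total RNA sequencing in HCT116, an established line of human colon carcinoma cells known to be mismatch-repair deficient. The 6 genes were taken by symbol, and each matched 1 of the 63653 genes in the files. All 6 were among the 12840 genes that passed the filter on low values and short loci. One pair of libraries came from cells given BIX 01294, a compound that inhibits G9a (gene EHMT2), at 0.5 µM for 72 h, and another from cells given a small interfering RNA (siRNA) against G9a, transfected with a lipid reagent at 10 nM for 72 h. Each treatment had a control group of its own, but the sources used here do not say how control cells were handled. Each of the 4 groups held 2 libraries, and both sequencing runs of a library entered as 1 average. Nothing in the labels ties libraries to separate cultures, so the p-values reflect only how these libraries spread, which may be technical.

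Mismatch repair removes base mismatches and small loops that DNA polymerases leave behind. MutS proteins find the error. MSH6 forms the dimer that reads single-base mismatches and short loops, and MSH3 the dimer that reads larger loops. MutL proteins are then recruited, of which PMS2 nicks the new strand, MLH3 is best known for meiotic crossovers, and PMS1 has no settled role. The exonuclease EXO1 digests the nicked strand, the clamp PCNA with its loader RFC, the single-strand binding protein RPA and polymerase delta refill the gap, and ligase I seals it. Each MutS and MutL member works with a partner subunit that is not among the 6 genes and was not analysed here. G9a is a methyltransferase that adds a silencing mark to histone H3.

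Depth implied by the deposited confidence bounds (over genes above 1 FPKM) ranged from 1999000 to 6846000 fragments per run. The pair of inhibitor control libraries stood apart from the rest. Across genes (which are not independent replicates), Pearson's r of log2 values was 0.992 within that pair, 0.957 to 0.974 between it and the remaining 6 libraries, and 0.985 to 0.995 among those 6. Every comparison with the inhibitor controls rests on these libraries, so the inhibitor libraries were also set against the siRNA controls. EHMT2 checked the siRNA labels. It was at 4.68 and 4.54 FPKM (fragments per kilobase, relative to all mapped fragments, here scaled between libraries) with the siRNA against 15.9 and 17.8 in the siRNA controls, a log2 difference of -1.67 (limma adjusted p = 0.000268). It was at 19.7 and 18.9 with the inhibitor and at 24.7 and 21.0 in the inhibitor controls. Of 9 colon epithelium markers 6 had a mean of at least 1 FPKM, with KRT8, KRT18 and KRT19 highest and CDH1 lowest of these at 1.03. VIL1 (0.233) and LGALS4 (0.124) were below that, and CDX1 was under 0.1 in every library. Summed over the list the markers ranged from 673 to 674 in the inhibitor controls, 623 to 637 with the inhibitor, 562 to 568 in the siRNA controls and 564 to 578 with the siRNA. The 3 keratins made up most of these sums and did not move together. In the inhibitor controls KRT8 had its highest group mean (256) and KRT19 its lowest (209). Of 10 fibroblast markers 1 reached a mean of 1 FPKM and LUM and FAP were listed at 0. That list summed to 2.78 to 3.85 in the inhibitor controls and to 1.99 to 2.95 in the other groups. The part of these differences in the results below was not tested.

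Levels of the 6 transcripts spanned more than an order of magnitude in these cells. FPKM is per transcript length, so levels can be set beside each other. MSH6 was highest with a mean of 45.0 FPKM over the 8 libraries, followed by EXO1 at 29.6, PMS1 at 19.1, PMS2 at 14.2, MLH3 at 12.8 and MSH3 at 2.60. MSH6 and EXO1 did not overlap in their ranges over libraries (36.4 to 53.5 and 23.7 to 33.1), and EXO1 stayed above PMS1 (15.8 to 22.2). PMS1 overlapped PMS2 (12.1 to 16.4), and PMS2 overlapped MLH3 (9.84 to 15.3), so the order of these neighbours is not set beyond their spread. MSH3, at 2.17 to 3.23, lay below all others. Each gene varied little between libraries, with the highest library between 1.36 times (PMS2) and 1.56 times (MLH3) the lowest.

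**Figure D1:**
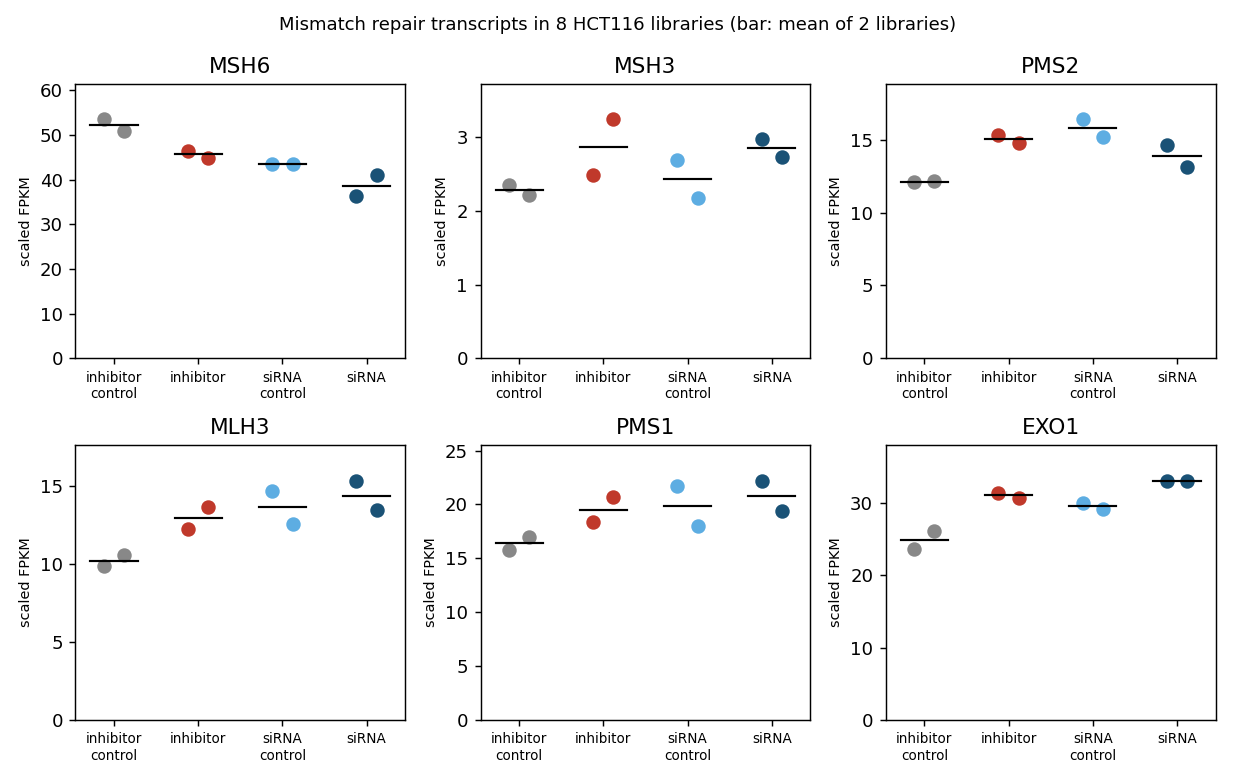
Scaled FPKM (vertical axes, starting at 0, a separate scale per gene) of the 6 mismatch repair transcripts in each library, by group on the horizontal axis; points are libraries and bars are means of 2. The inhibitor controls are highest for MSH6 (53.5 and 50.9) and lowest for PMS2, MLH3, PMS1 and EXO1, while the MSH3 libraries span 2.17 to 3.23 with no group apart from all others.

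The precision of these values differs by gene. Taking the confidence bounds to reflect counting error alone, 200 to 764 fragments per run lay behind MSH6, 147 to 722 behind EXO1, 104 to 500 behind PMS1, 70.3 to 409 behind MLH3 and 48.2 to 524 behind PMS2. MSH3 rested on 7.79 to 64.6 fragments, a counting error of 12.4% to 35.8% per run. The log2 ratio of the second run to the first was at most 0.39 in size for the other 5 genes, but for MSH3 it was 1.63 in siRNA replicate 2 (1.17 and 3.62 FPKM as deposited) and -0.83 in inhibitor control replicate 1 (3.28 and 1.84). The implied MSH3 fragments of these runs lay closer together than the FPKM. They were 12.9 and 18.0 in that siRNA library and 35.8 and 34.0 in that inhibitor control. The source of the gaps in FPKM was not tested. The standard error of the log2 difference with the inhibitor was 0.14 for MSH3, against 0.06 to 0.10 for the members called there. Differences in MSH3 of the size called in other members may thus have been missed, but the smallest detectable difference was not computed.

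MSH6 (ENSG00000116062, chromosome 2, 47922669 to 48037240 in hg19, the build of all loci below that carry no other name) was the member whose values were lower than their own controls with both treatments, by amounts that did not pass the test. Its level was 53.5 and 50.9 FPKM in inhibitor controls, 46.6 and 44.9 with the inhibitor, 43.5 and 43.5 in the siRNA controls, and 36.4 and 41.0 with the siRNA. The 4 groups did not overlap, with the inhibitor controls highest and the siRNA libraries lowest. With 2 libraries per group such gaps are common. Of all genes tested, 71.5% had no overlap between the inhibitor and its controls, and 49.7% none between the siRNA and its controls. The share with all 4 groups apart was not computed. With the inhibitor the difference on the log2(FPKM + 1) scale was -0.19 ± 0.07 (SE, limma adjusted p = 0.0522, 95% confidence interval -0.34 to -0.04), which did not pass the threshold of 0.05. The siRNA difference was -0.17 ± 0.07 (adjusted p = 0.196, interval -0.32 to -0.02) and did not pass either. Under 2 of 15 alternative settings the inhibitor difference did pass. These were quantile normalization (limma adjusted p = 0.0338) and a fit of only the groups compared (0.0342). Set against the siRNA controls, inhibitor libraries were 0.07 higher (adjusted p = 0.701, interval -0.08 to 0.22), the opposite sign. The control groups themselves differed, with MSH6 fallen by 0.26 in the siRNA controls relative to the inhibitor controls (adjusted p = 0.0141), more than either treatment gave for this gene. That call was lost without inhibitor control replicate 1 (adjusted p = 0.0836), siRNA control replicate 1 (0.0526) or siRNA control replicate 2 (0.0514).

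MSH3 (ENSG00000113318, chromosome 5, 79950467 to 80172279) had 2.35 and 2.21 FPKM in inhibitor controls, 2.49 and 3.23 with the inhibitor, 2.68 and 2.17 in the siRNA controls, and 2.97 and 2.72 with the siRNA. The treated libraries lay above their own controls in both pairs of groups, by narrow margins. No comparison passed. The log2 difference was 0.23 ± 0.14 with the inhibitor (adjusted p = 0.226, interval -0.08 to 0.54) and 0.17 ± 0.14 with the siRNA (adjusted p = 0.515, interval -0.14 to 0.48), and with the first runs alone the siRNA value was -0.19.

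PMS2 (ENSG00000122512, chromosome 7, 6012870 to 6048756), the nicking subunit, rose with the inhibitor relative to its own controls. Its level was 12.1 and 12.1 FPKM in inhibitor controls against 15.3 and 14.8 with the inhibitor, without overlap. The siRNA controls, at 16.4 and 15.2, were the highest group, and the siRNA libraries were at 14.7 and 13.1. The inhibitor difference was 0.29 ± 0.08 (log2, limma adjusted p = 0.0185, interval 0.11 to 0.47). The siRNA difference had the opposite sign, -0.18 ± 0.08, and did not pass (adjusted p = 0.247). The difference between the 2 treatment effects, tested as an interaction, was 0.47 ± 0.11 (adjusted p = 0.0293). It was the only interaction among the 6 members that passed. With the siRNA controls as reference the inhibitor value was -0.06 (adjusted p = 0.782, interval -0.24 to 0.11), and the siRNA controls were above the inhibitor controls by 0.36 (adjusted p = 0.00714). The inhibitor call of PMS2 was lost when any of its 4 libraries was left out (adjusted p of 0.0745 and 0.0654 on omitting the first or the second inhibitor control, and of 0.101 and 0.0673 on omitting the first or the second inhibitor library), and the interaction was lost under 11 of 19 alternatives.

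PMS2 has near-identical copies on chromosome 7, and no source used here says how shared fragments were assigned, so its values are uncertain. Of 10 other entries whose symbol starts with PMS2, 5 passed the filter. PMS2P1 had a mean of 10.3 FPKM, PMS2CL 5.96, PMS2P3 3.16, PMS2P4 1.90 and PMS2P5 1.68. PMS2CL, the copy nearest on the chromosome, stood at 4.77 and 3.74 FPKM in its inhibitor controls, 6.27 and 5.94 with the inhibitor, a log2 difference of 0.44 ± 0.12 (adjusted p = 0.0166), and at 6.48 and 7.35 in the siRNA controls. It thus passed in the same direction as PMS2. The other 4 copies did not pass with the inhibitor (log2 -0.17 to 0.19). PMS2 made up 37.0% and 35.6% of the summed level of itself and these 5 copies in the inhibitor controls, 39.5% and 41.2% with the inhibitor, 42.1% and 35.4% in the siRNA controls and 37.1% and 37.8% with the siRNA.

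MLH3 (ENSG00000119684, chromosome 14, 75480467 to 75518235) rose with the inhibitor as well. Its level was 9.84 and 10.6 FPKM in inhibitor controls against 12.2 and 13.6 with the inhibitor. The siRNA controls, at 14.7 and 12.6, and the siRNA libraries, at 15.3 and 13.4, overlapped each other and the inhibitor libraries. Only the inhibitor controls lay apart, and the share of all genes with this pattern was not computed. The inhibitor difference was 0.31 ± 0.10 (log2, limma adjusted p = 0.0393), against the siRNA controls it was -0.07 (adjusted p = 0.826, interval -0.30 to 0.16), and the siRNA difference was 0.07 (adjusted p = 0.73, interval -0.16 to 0.30). The call was lost under 10 of 15 alternatives, among them omission of the first or second inhibitor control (adjusted p = 0.168 and 0.0709) and of the first or second inhibitor library (0.061 and 0.222).

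PMS1 (ENSG00000064933, chromosome 2, 190649107 to 190742355) was also lowest in the inhibitor controls without passing. Its level was 15.8 and 17.0 FPKM there, 18.3 and 20.7 with the inhibitor, 21.8 and 18.0 in the siRNA controls, and 22.2 and 19.4 with the siRNA. Again the inhibitor controls lay below every other library, and the other 3 groups overlapped, a pattern not counted over all genes. The log2 difference was 0.24 ± 0.11 with the inhibitor (adjusted p = 0.112, interval -0.003 to 0.48) and 0.06 ± 0.11 with the siRNA (adjusted p = 0.785, interval -0.18 to 0.30).

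EXO1 (ENSG00000174371, chromosome 1, 242011269 to 242058450), the exonuclease, rose with the inhibitor with the smallest p of the members. Its level was 23.7 and 26.1 FPKM in inhibitor controls, 31.4 and 30.7 with the inhibitor, 29.96 and 29.1 in the siRNA controls, and 33.0 and 33.1 with the siRNA. The 4 groups did not overlap, and their order was inhibitor controls, siRNA controls, inhibitor, siRNA. As for MSH6, the share of all genes with 4 groups apart was not computed. The inhibitor difference was 0.31 ± 0.06 (log2, limma adjusted p = 0.00537, interval 0.17 to 0.45). The siRNA difference was 0.16 ± 0.06 (adjusted p = 0.207, interval 0.01 to 0.30) and that between inhibitor and siRNA controls 0.07 ± 0.06 (adjusted p = 0.691, interval -0.07 to 0.21). Neither passed. The inhibitor call held when any 1 of the 4 libraries compared was left out and was lost with FPKM as deposited (adjusted p = 0.0609) and with the first runs alone (0.127).

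**Figure D2:**
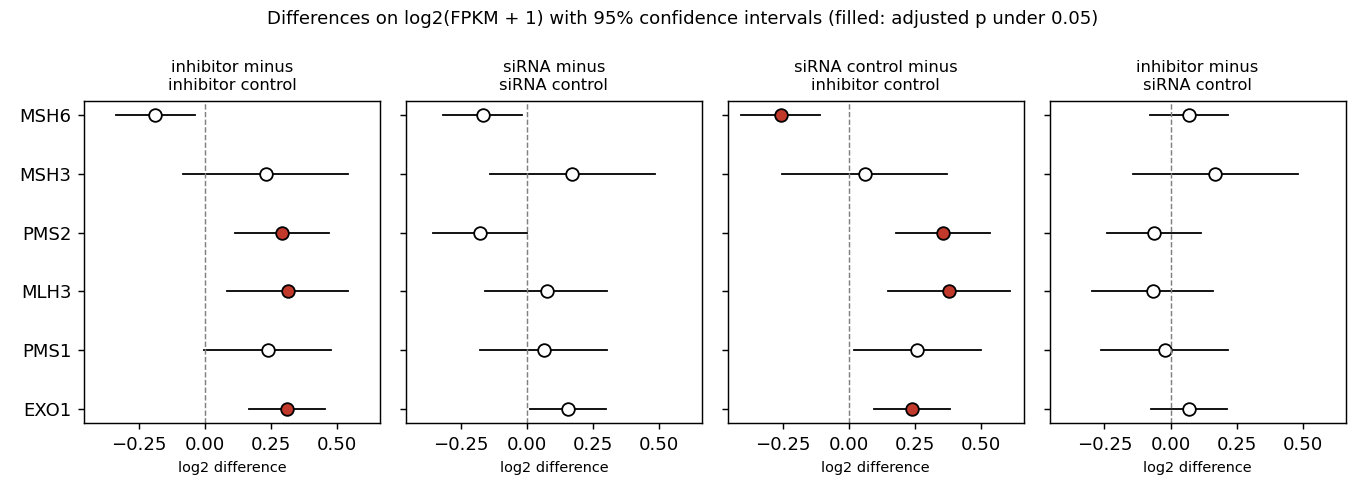
Differences on the log2(FPKM + 1) scale (horizontal axes) for each member (rows) in 4 comparisons; lines are 95% confidence intervals and filled points have a limma adjusted p under 0.05. Filled points appear only in the comparisons with the inhibitor controls (PMS2, MLH3 and EXO1 with the inhibitor; these and MSH6 for the siRNA controls), and every interval for inhibitor against siRNA controls crosses 0.

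Counted over the members, 3 of 6 were called with the inhibitor against its own controls, 3 higher and 0 lower, where 36.5% of all genes tested were called, 17.7% higher and 18.7% lower. The median log2 difference of the members was 0.265 and that of all genes 0.009. In all 6 members the inhibitor libraries and their controls did not overlap, as in 71.5% of all genes. Of the calls over all genes 48.6% were higher, but 34.8% with FPKM as deposited and 56.8% after quantile normalization. With FPKM as deposited 0 of the 6 members were called, and omission of any of the 4 libraries compared left 1, EXO1. With the siRNA 0 of 6 were called in limma, with 2 at an unadjusted p under 0.05, where 2.13% of all genes were called (37.7% of these higher, 14.9% with FPKM as deposited and 49.3% after quantile normalization). The groups did not overlap in 4 of 6, against 49.7% of all genes, and the medians were 0.068 and -0.01. Between inhibitor and siRNA controls 0 of 6 were called in limma, 0 at an unadjusted p under 0.05, with 0.0389% of all genes called. There the groups did not overlap in 2 of 6, against 45.9%. The siRNA controls against the inhibitor controls gave 4 of 6 called, 3 higher and 1 lower, where 38.2% of all genes were called (19.2% higher and 19.0% lower; 50.3% of the calls were higher, and 18.0% with FPKM as deposited). Without inhibitor control replicate 1, or without siRNA control replicate 1, 1 of the 6 was called there. These comparisons share control libraries and are not independent. The difference of the treatment effects was called for 1 of 6 members and 11.8% of all genes (43.5% of these higher, 32.8% with FPKM as deposited). Libraries were scaled to a common median ratio. With FPKM as deposited the median of all genes for the siRNA controls against the inhibitor controls moved from 0.007 to -0.108, and the members' median from 0.25 to 0.12.

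Ratios of 2 members within a library do not depend on how libraries are scaled. The ratio of MSH6 to EXO1 was 2.26 and 1.95 in the inhibitor controls, 1.48 and 1.46 with the inhibitor, 1.45 and 1.49 in the siRNA controls, and 1.1 and 1.24 with the siRNA. The siRNA libraries thus had the lowest ratios and the inhibitor controls the highest, while inhibitor and siRNA control libraries overlapped. No test was run on the ratios, which are given as values. MSH6 to MSH3, the level of one mismatch reader against the other, was 22.8 and 23.1 in the inhibitor controls, 18.7 and 13.9 with the inhibitor, 16.2 and 20.1 in the siRNA controls, and 12.2 and 15.0 with the siRNA. Both treatments had lower values than their own controls, and the counting error of MSH3 enters each of these. PMS2 to MLH3, both MutL nucleases, was 1.11 and 1.21 in the siRNA controls and 0.957 and 0.974 with the siRNA, and 1.08 to 1.25 in the inhibitor libraries and their controls. Only with the siRNA did MLH3 exceed PMS2.

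By the files' loci and GENCODE's strands, 2 of the members start beside another gene that is read from the opposite strand. PMS2 lies 119 bases from AIMP2, a scaffold protein of the aminoacyl-tRNA synthetase complex, and PMS1 lies 9 bases from ORMDL1, a regulator of sphingolipid synthesis. MSH6 overlaps FBXO11, a subunit of a ubiquitin ligase, by 20786 bases at its far end. No source used here says whether counting used the strand, so the values of this overlapping pair are uncertain. AIMP2 stood at 33.9 and 37.1 FPKM in inhibitor controls, 48.1 and 48.8 with the inhibitor, 54.8 and 53.5 in the siRNA controls and 57.0 and 54.5 with the siRNA. Like PMS2 it rose with the inhibitor (log2 0.44 ± 0.06, adjusted p = 0.00068) and did not pass with the siRNA (0.04, adjusted p = 0.741), and its interaction passed too (0.40, adjusted p = 0.0188). ORMDL1 stood at 20.1 and 20.3 FPKM in inhibitor controls against 25.2 and 30.03 with the inhibitor, and it rose (log2 0.43 ± 0.08, adjusted p = 0.00342) where PMS1 did not pass. The siRNA controls, at 30.6 and 30.6, and the siRNA libraries, at 32.0 and 31.8, were higher still. FBXO11, with 10.4 and 9.55 FPKM in inhibitor controls against 8.72 and 7.42 with the inhibitor, lay lower like MSH6 without passing (log2 -0.28 ± 0.10, adjusted p = 0.055).

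**Figure D3:**
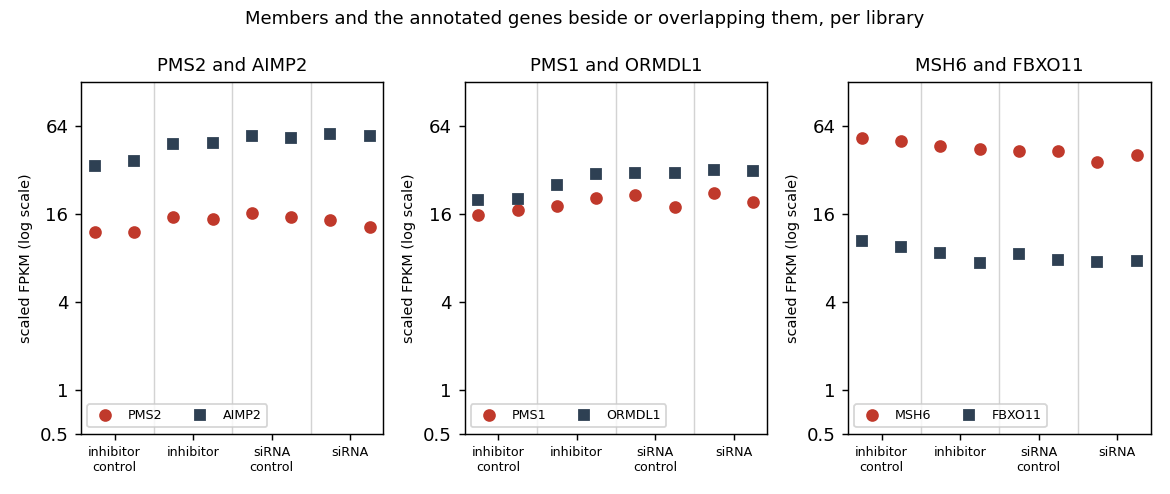
Scaled FPKM (vertical axes, log scale) of 3 members (circles) and the annotated genes beside or overlapping them (squares) in each of 8 libraries, by group on the horizontal axis. AIMP2 and ORMDL1 are lowest in the inhibitor controls, as are PMS2 and PMS1; FBXO11 and MSH6 are both highest in the inhibitor controls.

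Short stretches of the promoters are shown because 2 members start beside a neighbour and because 2 members hold a site motif of E2F, the factor family of S phase genes. RefSeq promoter windows (GRCh38.p14, 250 bases before to 50 after each start) matched all 6 members. They were searched on both strands for the E2F letters TTTGGCGC or TTTCGCGC and for the CCAAT box, and the 2 motifs do not overlap each other in the stretches below. Capitals mark the match. The E2F letters were found for MSH3, where 2 matches on opposite strands overlap, and for EXO1 (chr1:241848197-241848226, plus strand), whose stretch is shown. Of all genes with a window 1.4% hold them.
EXO1: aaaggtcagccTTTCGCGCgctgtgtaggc
The CCAAT box was found for MSH6 (chr2:47783086-47783115, plus strand), PMS1 (chr2:189784386-189784415, plus strand, the first of 2 matches) and PMS2 (chr7:6009209-6009238, minus strand, the first of 3 matches), each printed as ATTGG, the same box on the other strand. Of all genes with a window 39.7% hold one.
MSH6: aggcgcctgttgATTGGccactggggcccg
PMS1: cgctgccagcggATTGGctgcgagcagcgc
PMS2: cggtgtgctctgATTGGcccaggctctttg
MSH6 and EXO1 also have windows at other annotated starts, and those lack the motif printed for the gene. MLH3 held neither set of letters in its window. The members called with the inhibitor were EXO1, which holds the E2F letters, PMS2, which holds CCAAT boxes, and MLH3, which holds neither. The members not called hold the same motifs, MSH3 the E2F letters and MSH6 and PMS1 the CCAAT box. A link between motifs and calls was not tested.

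The later steps of the pathway were mixed in direction. Of 15 genes for excision, resynthesis and ligation 5 were higher, 2 lower and 8 not called with the inhibitor against its own controls (median log2 0.068, against 0.009 for all genes). Of all genes 36.5% were called there, 17.7% higher and 18.7% lower. PCNA, the sliding clamp, rose from 161 to 199 FPKM (0.305 ± 0.06, adjusted p = 0.00356). RPA3 rose by 0.70 (adjusted p = 0.000505) and the clamp loader subunit RFC5 by 0.25 (adjusted p = 0.0122). RPA1, the large subunit of the same complex as RPA3, dropped from 42.9 FPKM to 8.17 (log2 -2.25, adjusted p = 1.05e-05). Against the siRNA controls 0 of the 15 were called in limma, with PCNA at 0.17 (adjusted p = 0.297) and RPA1 at -0.455 (adjusted p = 0.232). With the siRNA 0 of the 15 were called, with PCNA at 0.07 (adjusted p = 0.512) and RPA1 at -0.34 (adjusted p = 0.174). The siRNA controls had 4 higher and 3 lower than the inhibitor controls, among them RPA1 at 11.7 against 42.9 FPKM. Of all genes 38.2% were called between the control groups, 0.0389% between inhibitor and siRNA controls and 2.13% with the siRNA.

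Among 8 enzymes and partners that act beside mismatch repair, 2 were higher, 1 lower and 5 not called with the inhibitor (median log2 0.202), a share called near the 36.5% of all genes. MCM8, a helicase of recombination repair, rose from 17.7 to 21.3 FPKM (0.26, adjusted p = 0.0259) and TDG, which removes thymine from mismatches with guanine, to 19.5 FPKM (0.27, adjusted p = 0.0309). SETD2, whose histone mark recruits the MSH6 dimer to chromatin, fell from 10.0 to 7.78 FPKM (-0.33, adjusted p = 0.0395). The siRNA controls against the inhibitor controls gave 2 higher and 1 lower too, with TDG at 0.30 (adjusted p = 0.0182), MCM8 at 0.24 (0.0317) and SETD2 at -0.33 (0.0368). With the siRNA, and between inhibitor and siRNA controls, 0 of the 8 were called. The shares of all genes called were 38.2% between the control groups, 2.13% with the siRNA and 0.0389% between inhibitor and siRNA controls.

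MSH6 and EXO1 are known to be expressed most in S phase, so 15 S phase and E2F-driven genes were set beside them. With the inhibitor 2 were higher, 5 lower and 8 not called (median log2 -0.049, against 0.009 for all genes). Of all genes 17.7% were called higher and 18.7% lower there. The siRNA controls against the inhibitor controls gave 2 higher and 6 lower, where 19.2% of all genes were called higher and 19.0% lower. The cyclin gene CCNE2 rose to 18.1 FPKM (0.555, adjusted p = 0.00062). RRM2, which makes deoxyribonucleotides, fell from 120 to 55.8 FPKM (-1.10, adjusted p = 1.04e-05), the replicative helicase subunit MCM6 from 30.6 to 13.9 (-1.08) and the proliferation marker MKI67 to 11.8 (-1.27). The list thus moved both ways, as did all genes. Between inhibitor and siRNA controls 0 of its 15 genes were called, against 0.0389% of all genes. With the siRNA 1 was called, where 2.13% of all genes were. It was RRM2, which fell from 55.9 to 42.3 FPKM (-0.39, limma adjusted p = 0.0267). Its part in the lower MSH6 or higher EXO1 values there was not tested.

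**Figure D4:**
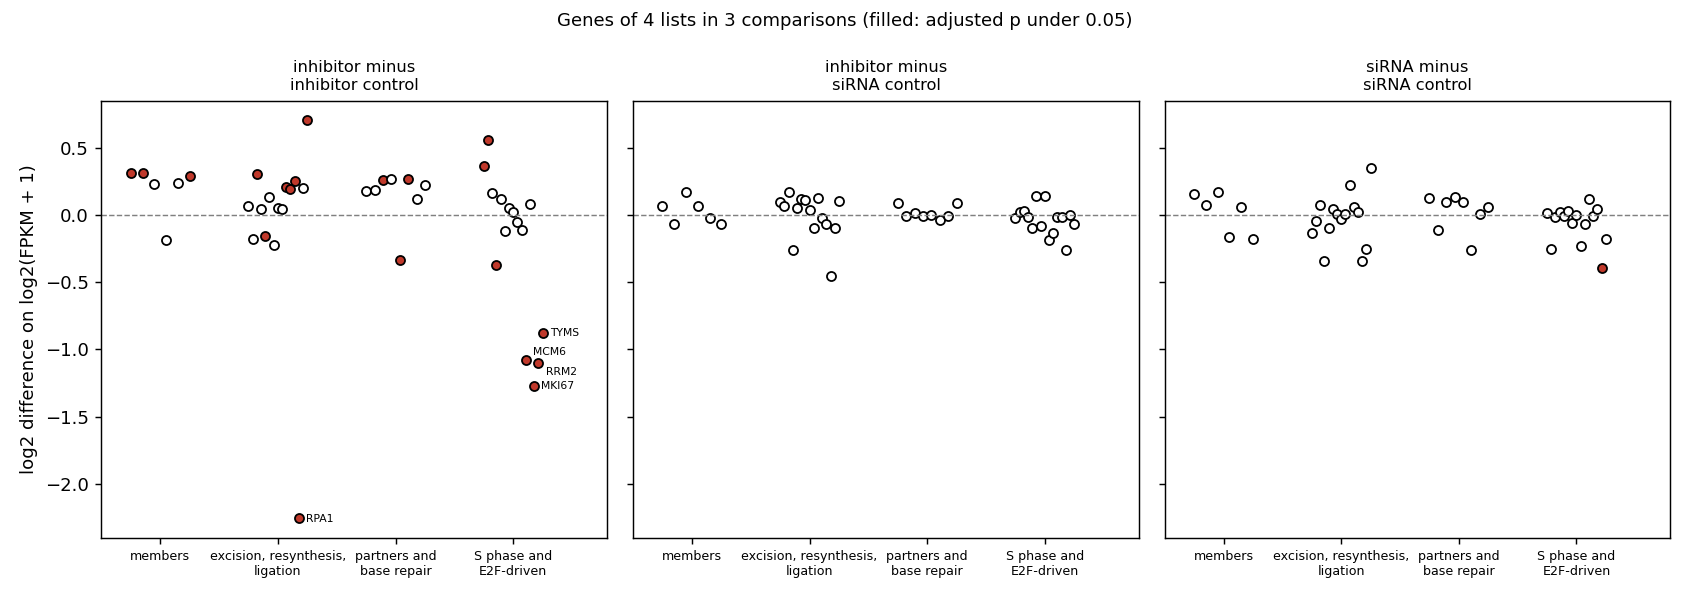
Differences on the log2(FPKM + 1) scale (vertical axis) for each gene (points) of 4 lists in 3 comparisons; filled points have a limma adjusted p under 0.05. Against the inhibitor controls the lists scatter from RPA1 at -2.25 to RPA3 at 0.70, while against the siRNA controls no inhibitor value is filled, and with the siRNA only RRM2 is.

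The genes most like each member over the 8 libraries were taken among tested genes with a mean of at least 5 FPKM, by Pearson's r of log2 values. The 8 libraries form 4 groups and the inhibitor controls stand apart, a structure that all genes share, so r is given as a description. For EXO1 they were DNAJC19 (0.992) and HSPA8 (0.991), for MLH3 ORC6 (0.998) and RRP7A (0.987), and for PMS2 PAWR (0.988) and DUSP3 (0.987). For PMS1 they included its fellow member MLH3 (0.975). For MSH6 they were FUT11 (0.981) and LSS (0.979), and for MSH3 PDIK1L (0.95) and DDB1 (0.949).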

How the data were processed

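Stranded total RNA libraries of HCT116 were sequenced on a HiSeq-2000 (labels' protocols). The authors deposited gene-level FPKM with confidence bounds from Cufflinks, per the file headers. The submitters' processing notes also name STAR 2.3.0e, SAMtools 0.1.19 and hg19. No source used here gives Cufflinks' version and options, the annotation release or strand use. Of 63784 entries, 131 that repeat an identifier were summed, and 8 genes without an OK status in every run were left out. Runs were averaged per library. Genes needed a mean of 1 FPKM or more and a locus of 300 bases or more (420 shorter genes were removed). Median-of-ratios size factors ranged from 0.878 to 1.092. log2(FPKM + 1) was tested with limma 3.58.1 in R 4.3.3 (mean-variance trend, 4 groups in 1 fit, 4 residual and 5.04 prior degrees of freedom, two-sided, Benjamini-Hochberg over 12840 genes, threshold 0.05). The script was tested on simulated data. This scale understates changes of low genes. Counting errors come from the confidence bounds and cover counting only. Named were all 6 members, PCNA, tested PMS2 copies and neighbours, the 2 genes most like each member, and up to 4 called genes with the smallest p per list; some results under this rule are not reported here. The members and lists were chosen with earlier results of these data known. Alternatives varied the scaling, pseudocount, filters, fit, runs and libraries.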

Additional observations from a re-analysis of the deposited data

Results flagged for a closer look

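The effects of the 2 treatments on PMS2 differed by the test of the difference itself, with the inhibitor effect above the siRNA effect by a log2 of 0.468 (limma adjusted p = 0.0293). The inhibitor libraries (15.3 and 14.8 FPKM) lay above their controls (12.1 and 12.1), and the siRNA libraries (14.7 and 13.1) below theirs (16.4 and 15.2). The value rests on the inhibitor controls, which stood apart across all genes, and its adjusted p over 19 alternatives passed in 8. It was lost without either inhibitor control, without either inhibitor library, without siRNA replicate 2 and without siRNA control replicate 1.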

How the results depend on the processing

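Of 486 recomputed differences of single members, 412 kept their direction and side of the threshold, 46 lost a call, 4 gained one and 24 changed sign. With the inhibitor against its own controls 4682 genes and 3 members were called. These counts became 3111 and 0 with FPKM as deposited, 3108 and 1 with the first runs alone, and 2992 genes without the filter on low values. With 1 library left out they were 2669 to 3469 genes and 1 member. With the siRNA 273 genes were called, but 134 with FPKM as deposited, 5 without the filter, 22 with short genes kept, 24 from only the groups compared, 6 without the mean-variance trend, 31 and 45 with the first or second runs alone, and, on leaving out 1 library, 20 or 68 when the first or second siRNA library was omitted and 421 or 9 when the first or second siRNA control was. For the siRNA controls against the inhibitor controls the count fell from 4909 to 3171 without the filter and 3209 with the first runs, and members called from 4 to 1 in these and with FPKM as deposited, and to between 1 and 4 with 1 library left out. Between inhibitor and siRNA controls 5 genes became 32 with FPKM as deposited, 12 with short genes kept, 11 with robust moderation, 1 and 2 with single runs, 0 without the filter or the trend, and 0 to 43 with 1 library left out. For the difference of effects 1517 became 737 with FPKM as deposited, 239 without the filter, 878 without the trend, 524 and 719 with single runs, and 488 to 1480 with 1 library left out, and the 1 member called became 0 in each of these settings except without siRNA replicate 1 or siRNA control replicate 2. Without both inhibitor control libraries, an alternative chosen after seeing the data, 151 genes were called with the siRNA and 11 between inhibitor and siRNA controls.

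None of the values that changed sign had been called. MSH3 with the siRNA went from 0.172 to -0.191 with the first runs, a reversal as large as the value itself, and MSH3 between the controls -0.034 with FPKM as deposited, -0.129 with the first runs and -0.049 to 0.169 with 1 library left out. Between inhibitor and siRNA controls PMS1 became 0.093, PMS2 0.05 and MLH3 0.044 with FPKM as deposited, and PMS1 0.007 and MLH3 0.003 with the first runs. With 1 library left out PMS1 ranged there from -0.151 to 0.107 and MLH3 from -0.175 to 0.038, and with the siRNA PMS1 ranged from -0.066 to 0.192 and MLH3 from -0.033 to 0.18. The MSH6 difference of effects became 0.021 with FPKM as deposited, 0.064 with the first runs and -0.104 to 0.063 with 1 library left out, and that of MSH3 was -0.083 to 0.198. Where fewer genes, samples or runs entered, the construction itself differs; for the other settings the cause was not tested.

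Libraries of a treatment and its control that share a replicate number had deviations that correlated at 0.048 for the inhibitor and 0.042 for the siRNA. With 2 libraries per group this cannot show whether they share more than a number, and the labels do not say. The main fit treated them as unpaired. With that number as a replicate block 68 genes were called with the siRNA, and MLH3 with the inhibitor had an adjusted p of 0.0548.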

Other observations

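The 2 meiotic relatives of the MutS genes were listed too. MSH4 had a mean of 0.519 FPKM and did not pass the filter on low values. MSH5 had a mean of 18.5 FPKM, above PMS2, MLH3 and MSH3, with 17.8 in the inhibitor controls, 17.9 with the inhibitor, 18.9 in the siRNA controls and 19.7 with the siRNA. It was not called in any of the 5 comparisons. Its locus overlaps the read-through gene MSH5-SAPCD1 and SAPCD1, so the value is uncertain.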
